A study of Mus musculus with 2 samples.

Results

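The mitochondrial ribosomal protein genes were compared between hindlimb skeletal muscle of wild-type mice and of mice that carry a Syn4 overexpression transgene. Members were all probe sets on the array whose annotation names a single gene symbol of the form Mrpl or Mrps followed by a number, which gave 85 probe sets of 77 genes out of 19938 genes with a single symbol. Of these, 48 carry Mrpl symbols and 29 carry Mrps symbols. Mrpl53 was read only by a probe set that is shared with Ccdc142 (7.39 in wild type against 7.18 in the transgenic array) and was not counted.

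The study has 1 array of wild-type C57BL/6J males and 1 array of Syn4 transgenic males of the same strain, all on standard chow. Syn4 is syntaxin 4, a plasma membrane SNARE protein through which muscle cells deliver the glucose transporter GLUT4 to their surface, and the series is about how long these insulin-sensitive mice live. The labels give neither the age of the mice, the number of mice behind an array, whether RNA was pooled, nor the promoter that drives the transgene. Values are log2 intensities as deposited, and each difference is the transgenic minus the wild-type value. With 1 array per genotype there is no replicate error, so no difference was tested and each is a single measurement.

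Mitochondria keep their own ribosome, which is built on RNA of the mitochondrial genome but from proteins that are all encoded in the nucleus, made in the cytosol and imported. It translates only the membrane-embedded core subunits of the respiratory chain and ATP synthase, so muscle needs it to assemble complexes I, III, IV and V. Its proteins form a large subunit, which joins amino acids, and a small subunit, which reads the mRNA. Some descend from bacterial ribosomal proteins and others have no bacterial counterpart. In worms, knock-down of the Mrps5 orthologue lengthens life, and in mouse strains the expression of Mrps5 and its relatives has been related to lifespan.

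The upstream sequences of 6 members are given here because results below turn on these genes: the lowest member overall (Mrpl14), the lowest with an Mrps symbol (Mrps18b), a divergent pair in which both genes are members (Mrps11 and Mrpl46), a low member with an ETS motif (Mrpl34), the member tied to lifespan in the background above (Mrps5) and the highest member (Mrps16). The sequences are from RefSeq, assembly GRCm38.p6, and each ends at the base before the most upstream annotated start of the gene. They run 5′ to 3′ on the gene's strand and stop early where a gene on the other strand starts. Capitals mark a match to the NRF1 motif (GCATGCGC) or to the ETS motif (CCGGAAG) on either strand. Mrpl14 lies at chr17:45686219-45686348, plus strand, and is cut at the start of Tmem63b. Mrps18b lies at chr17:35916441-35916690, minus strand. The Mrps11 stretch is chr7:78783090-78783130, plus strand, and fills the whole gap to the start of Mrpl46. Mrpl34 lies at chr8:71464676-71464925, plus strand, Mrps5 at chr2:127587176-127587425, plus strand, and Mrps16 at chr14:20393635-20393884, minus strand.
Mrpl14: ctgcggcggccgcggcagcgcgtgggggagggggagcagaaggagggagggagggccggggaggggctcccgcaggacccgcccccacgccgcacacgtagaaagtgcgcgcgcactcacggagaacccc
Mrps18b: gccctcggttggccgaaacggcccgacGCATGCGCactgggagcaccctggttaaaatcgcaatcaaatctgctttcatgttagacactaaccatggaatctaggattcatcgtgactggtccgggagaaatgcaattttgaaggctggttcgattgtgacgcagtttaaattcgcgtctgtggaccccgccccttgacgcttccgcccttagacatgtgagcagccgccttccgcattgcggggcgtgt
Mrps11: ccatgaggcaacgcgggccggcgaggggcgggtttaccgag
Mrpl34: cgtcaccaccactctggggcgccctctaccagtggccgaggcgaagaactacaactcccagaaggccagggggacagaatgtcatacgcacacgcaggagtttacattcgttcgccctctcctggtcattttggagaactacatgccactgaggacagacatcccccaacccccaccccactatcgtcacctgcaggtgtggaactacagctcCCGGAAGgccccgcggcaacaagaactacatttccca
Mrps5: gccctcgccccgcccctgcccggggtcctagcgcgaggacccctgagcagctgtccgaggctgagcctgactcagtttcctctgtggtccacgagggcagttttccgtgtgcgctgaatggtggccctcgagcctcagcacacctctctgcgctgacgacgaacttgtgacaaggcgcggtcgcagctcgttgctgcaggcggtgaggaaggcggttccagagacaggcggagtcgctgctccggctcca
Mrps16: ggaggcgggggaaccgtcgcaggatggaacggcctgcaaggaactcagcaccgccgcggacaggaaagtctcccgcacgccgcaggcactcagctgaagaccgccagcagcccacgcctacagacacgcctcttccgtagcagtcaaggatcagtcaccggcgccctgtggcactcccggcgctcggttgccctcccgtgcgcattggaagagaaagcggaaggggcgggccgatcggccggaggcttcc

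Of the 77 genes, 69 had a lower value in the transgenic array, 3 had the same value in both and 5 had a higher value. The median difference was -0.24, which is a 1.18-fold lower level, or 84.7% of wild type. The quartiles of the set were -0.33 and -0.10. Over the 9974 genes that passed the level filter (a value of at least 6.79 in 1 of the arrays, the median over all genes), 44.2% were lower and 53.5% higher, and the median difference was 0.03. The quartiles of those genes were -0.12 and 0.17. All 77 members passed that filter. In a muscle homogenate, fewer mitochondria-rich fibres and less of these RNAs per fibre cannot be told apart.

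Nearly all of the individual differences were small. By the rule of 1.5-fold, 2 members were lower and 0 were higher, against 1.71% and 2.66% of all genes past the filter. By a second rule of 1.2-fold, 32 members (41.6%) were lower and 0 higher, against 10.4% and 14.9% of all genes. The members' levels lay mostly in the middle to upper range of the array, so the same shares were taken over the 2895 genes whose mean level fell between the members' own quartiles of 8.69 and 10.26. There 42.8% of genes were lower and 9.98% were lower by 1.2-fold, with a median of 0.03. The middle 95% of differences of these genes ran from -0.50 to 0.56, and 73 of the 77 members lay inside that span. The exceptions were Mrpl14, Mrpl15, Mrpl34 and Mrps18b. Members with mean levels outside 8.69 to 10.26 were set against this span too, among them Mrpl15, Mrpl34 and Mrps18b, which lie above it. For those members it is not a span of genes of like level. Of the genes of like level, 12.2% were at or below the members' median of -0.24.

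**Figure D1:**
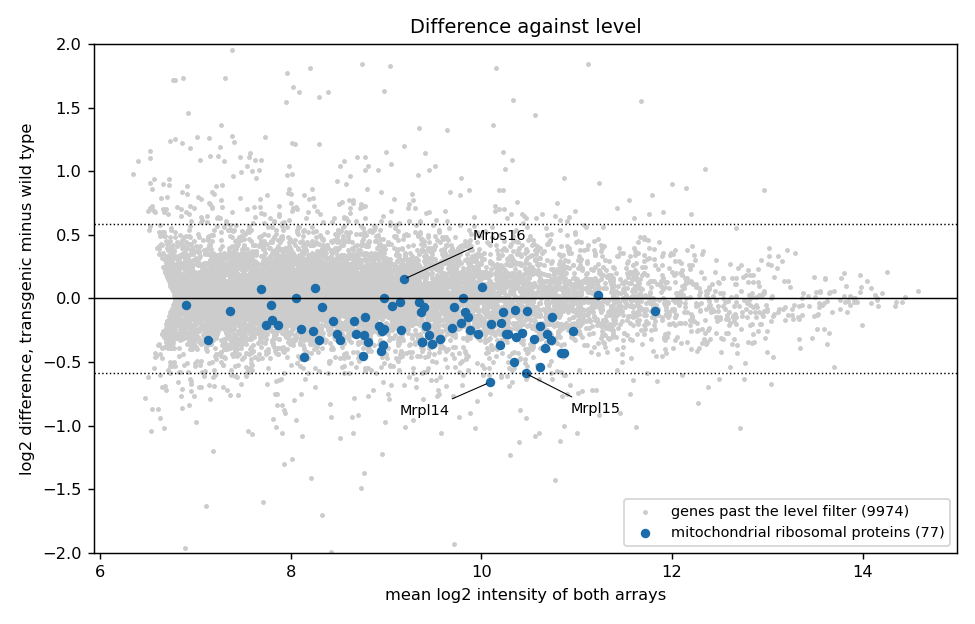
Each point is 1 gene, plotted by its mean log2 intensity over both arrays (horizontal) and its log2 difference, transgenic minus wild type (vertical), with 9974 genes past the level filter in grey and the 77 mitochondrial ribosomal protein genes in blue. Dotted lines mark 1.5-fold, 18 grey genes lie beyond the vertical limits, and most blue points lie below 0 while only Mrpl14 and Mrpl15 pass the lower line.

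The 3 members with the lowest differences were all large subunit genes. Of the 49 measured genes of this subunit, 45 (91.8%) were lower, against 44.2% of all genes past the level filter. The subunit's median was -0.26. Mrpl14, which sits where the subunits meet, had 10.42 in wild type against 9.76 in the transgenic array, a difference of -0.66 (1.58-fold lower). Mrpl15, another protein with a bacterial counterpart, had 10.76 and 10.17, a difference of -0.59 (1.51-fold lower). These were the 2 members past 1.5-fold, and Mrpl15 passed it by less than the last decimal of the deposited values. Mrpl34 was next at 10.89 and 10.35 (-0.54), just inside the rule of size. Mrpl46 (8.98 and 8.53, -0.45), Mrpl37 (11.08 and 10.65, -0.43) and Mrpl12 (11.05 and 10.62, -0.43) completed the 6 lowest of the large subunit. Among all members, Mrps18b (-0.50) and Mrps11 (-0.46) of the small subunit lay between Mrpl34 and Mrpl46. At the other end, 3 large subunit genes were higher, none by 1.2-fold. They were Mrpl27 (9.96 and 10.05, 0.09), Mrpl47 (7.65 and 7.72, 0.07) and Mrpl40 (11.21 and 11.24, 0.03), of which Mrpl40 turned to -0.01 after repeated quantile normalization and Mrpl47 to -0.03 with averaged probe sets. Mrpl54 was equal at 9.81, Mrpl57 differed by -0.03, and Mrpl33 and Mrps30 by -0.05 each. The large subunit genes between these ends were all lower, from Mrpl30 (10.86 and 10.47, -0.39) to Mrpl17 (9.09 and 9.03, -0.06).

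The same direction held within both kinds of large subunit protein. The 29 genes with a bacterial counterpart had a median of -0.28, with 27 lower and 16 lower by 1.2-fold. The 20 measured genes classed as found only in mitochondria had a median of -0.23, with 18 lower and 8 lower by 1.2-fold. Both shares of lower genes by 1.2-fold, 55.2% and 40.0%, were above the 10.4% of all genes.

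Groups of large subunit proteins that share a place in the structure had medians between -0.33 and -0.11. The stalk proteins, which recruit translation factors and help to release spent tRNA, had the lowest, -0.33, over 4 genes that were all lower. Mrpl12, which forms the flexible stalk and is known to bind the mitochondrial RNA polymerase, differed by -0.43. Mrpl11 (10.38 and 10.01, -0.37) and Mrpl10 (10.83 and 10.55, -0.28), which hold the stalk to the ribosome, and Mrpl1 (9.04 and 8.82, -0.22) of the opposite stalk were also lower. In the central protuberance, the crown of the subunit where it meets its partner, 5 of 6 genes were lower, with a median of -0.27. Mrpl46 was lowest there, followed by Mrpl52 (-0.29), Mrpl18 (-0.28), Mrpl38 (-0.25) and Mrpl48 (-0.09), and Mrpl40 was highest at 0.03. Around the tunnel through which the new protein leaves, the median was -0.11 and 5 of 6 genes were lower. Mrpl45, which holds the ribosome to the inner membrane, was the lowest of these (8.91 and 8.62, -0.29), and Mrpl22 (-0.21), Mrpl24 (-0.11), Mrpl23 (-0.10), Mrpl17 (-0.06) and Mrpl47 (0.07) followed. Each of these groups is small, and the differences between their medians were not tested.

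Among the small subunit genes, 22 of 26 (84.6%) were lower, against 44.2% of all genes past the level filter. Their median was -0.17, and none passed 1.5-fold. By 1.2-fold, 8 (30.8%) were lower, against 10.4% of all genes. Mrps18b had 10.59 in wild type against 10.09 in the transgenic array (-0.50), Mrps11, which lies near the exit of the mRNA, had 8.37 and 7.91 (-0.46), Mrps2 had 9.15 and 8.74 (-0.41), and Mrps22 had 9.15 and 8.78 (-0.37). Mrps16 (9.11 and 9.26, 0.15) and Mrps25 (8.22 and 8.30, 0.08) were the only higher members of this subunit, and Mrps9 (8.06) and Mrps6 (8.98) were equal in both arrays. All small subunit genes between these were lower, from Mrps31 (8.98 and 8.64, -0.34) to Mrps34 (9.16 and 9.13, -0.03). The 10 genes classed as found only in mitochondria had a median of -0.25, with 9 lower and 4 (40.0%) lower by 1.2-fold. The 16 with a bacterial counterpart had -0.13 with 13 lower.

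Proteins that line the path of the mRNA and the decoding site were all lower, 6 of 6, with a median of -0.22. After Mrps11 and Mrps2 came Mrps7 (10.40 and 10.12, -0.28), next to the mRNA exit. Mrps5, at the mRNA entry, had 9.94 and 9.79, a difference of -0.15 on its brighter probe set, and 9.23 and 8.98 (-0.25) on its other. Both Mrps5 probe sets were lower, the brighter by less than the members' median of -0.24 and the dimmer by about as much. Mrps24, also at the entry, differed by -0.11 and Mrps12, which governs the accuracy of decoding, by -0.10.

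Several genes carry names that do not match their place. The Mrps18 paralogues descend from a single bacterial protein but occupy different sites: Mrps18a in the large subunit (10.89 and 10.56, -0.33), Mrps18b and Mrps18c in the small subunit (9.81 and 9.58 for Mrps18c, -0.23). All 3 were lower. In the groups above, Mrps18a and Mrps18b were classed as found only in mitochondria in spite of this descent, and Mrps18c as having a bacterial counterpart. Mrps30, a large subunit protein, was at 7.82 and 7.77. Mrps36, which was later placed in the 2-oxoglutarate dehydrogenase complex of the TCA cycle, had 8.53 and 8.35 (-0.18), and its other probe set differed by -0.17. Mrpl58, a peptidyl-tRNA hydrolase built into the large subunit, had 9.53 and 9.31 (-0.22). Mrps36 and Mrpl58 were left out of the subunit groups.

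**Figure D2:**
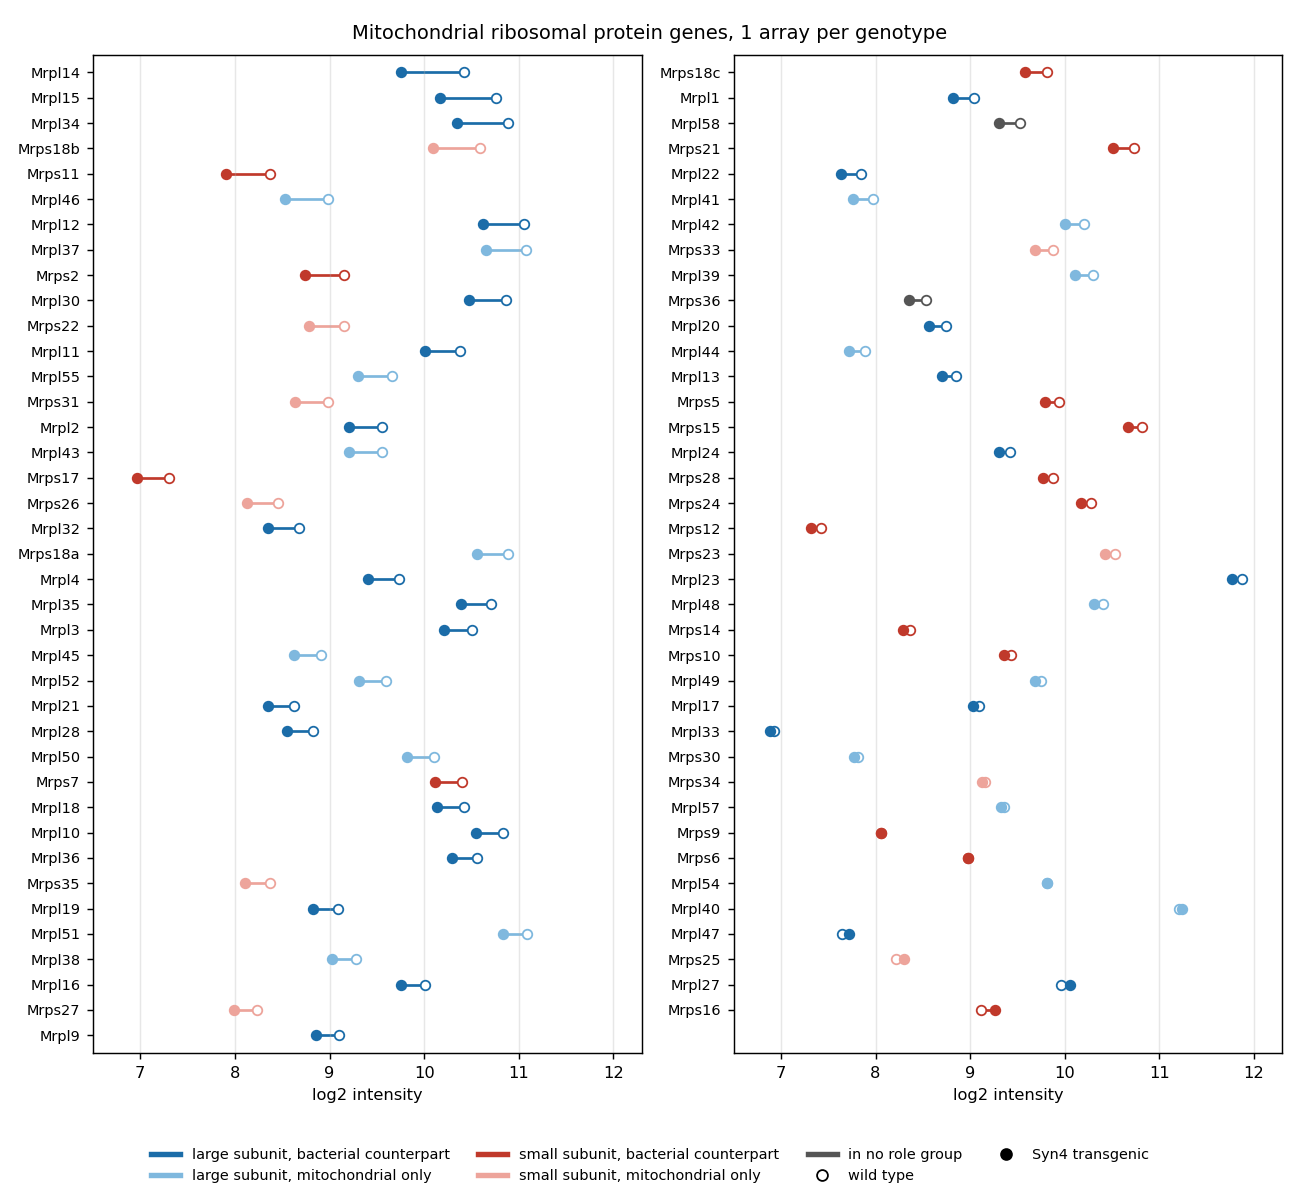
Log2 intensity of each of the 77 genes (horizontal) in the wild-type array (open circle) and the Syn4 transgenic array (filled circle), with a line joining both values, colour giving the role group, and genes ordered by difference from Mrpl14 (-0.66) at the upper left to Mrps16 (0.15) at the lower right. The filled circle lies to the left of the open one for 69 genes.

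The wild-type values of the members ran from 6.93 (Mrpl33) to 11.87 (Mrpl23), and the transgenic values from 6.88 to 11.77 for the same genes. Mrps17 (7.30 and 6.97, -0.33) and Mrps12 (7.42 and 7.32) were also dim, and Mrpl40 and Mrpl51 bright. Probe sets differ in how well they bind, so no order of RNA amounts is read from this range. Across the 77 genes, which share these 2 arrays, difference and mean level were weakly related (Pearson's r = -0.21, given as a description).

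For 8 genes there was more than 1 probe set. Those of Mrpl23 (-0.12 and -0.10), Mrps33 (-0.20 and -0.19), Mrps36 and Mrpl41 (-0.27 and -0.21) gave like values. The probe sets of Mrpl51 were both lower but unequal, at -0.26 for the brighter and -0.44 for the dimmer. For Mrpl27 and Mrpl47 the sign depended on the probe set: Mrpl27 was 0.09 on the brighter and -0.02 on the dimmer, and Mrpl47 was 0.07 and -0.12. Most of these probe sets share the same transcript accessions, so copies of the gene elsewhere in the genome may share their signal. In all, 77 of the 85 probe sets were lower.

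Genes that build and serve the mitochondrial ribosome were mostly lower too. Of 15 factors of mitochondrial translation, 14 (93.3%) were lower, 5 of them by 1.2-fold, with a median of -0.22. Among all genes past the level filter, 44.2% were lower and 10.4% were lower by 1.2-fold. The list holds factors that start, extend, end and recycle translation and others that aid it, such as Taco1 and Oxa1l. Taco1, an activator of cytochrome oxidase subunit I synthesis, was lowest (10.03 and 9.62, -0.41), and the release factor Mtrf1 was the exception at 0.03. Tufm, the elongation factor that brings tRNA, differed by -0.29, and Oxa1l, which inserts the new proteins into the membrane, by -0.25. Of 25 measured genes of ribosome assembly and rRNA modification, 20 were lower and 7 by 1.2-fold, with a median of -0.16. Rbfa, which matures the small subunit RNA, was lowest (9.23 and 8.72, -0.51) and Tfb1m, an rRNA methyltransferase, highest (0.08). Malsu1, which binds the protein of Mrpl14 to hold back subunit joining, differed by -0.18. Tufm, Oxa1l and Malsu1 were chosen for naming after their values were seen.

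Mitoribosomal proteins known by other symbols were split. Ptcd3 was lower (9.60 and 9.31, -0.29), Dap3 was nearly equal (9.64 and 9.63), and Chchd1 (10.39 and 10.52, 0.13) and Gadd45gip1 (10.02 and 10.16, 0.14) were higher. Their median of 0.06 rests on 4 genes, and their mean was -0.01.

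Beyond the ribosome, the nuclear-encoded subunits of the respiratory chain were lower in 41 of 41 genes, with a median of -0.18, from Ndufb3 (-0.54) to Atp5d (-0.02). Mitochondrial chaperones and proteases had a median of -0.09, from Clpp (-0.32) to Yme1l1 (0.08). Of these, 11 of 12 were lower and 2 (16.7%) by 1.2-fold, against 44.2% and 10.4% of all genes past the level filter. Genes of mitochondrial transcription and DNA replication had a median of 0.00 over 9 genes, from Tefm (-0.19) to Top1mt (0.11), with 0 past 1.2-fold. Transcription factors known to drive mitochondrial genes had a median of -0.04 over 9 genes, from Esrra (-0.22) to Yy1 (0.21), with 0 past 1.2-fold. Among these, Nrf1 differed by -0.17, Gabpa by 0.07 and the coactivator Ppargc1a by -0.05. Of the mRNAs that the mitochondrial ribosome translates, only COX2 (13.77 and 13.87) and ND3 (13.36 and 13.36) had a probe set with a single symbol, and neither was lower. Nrf1, Gabpa, Ppargc1a, COX2 and ND3 were chosen for naming after their values were seen.

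The ribosomal proteins of the cytosol were set beside the members as the other ribosome of the cell. Of 50 such genes, 26 were lower, 19 higher and 5 equal, with a median of -0.03, from Rps13 (-0.39) to Rpl30 (0.40). In this list 3 genes (6.0%) were lower by 1.2-fold, against 41.6% of the mitochondrial ribosomal protein genes and 10.4% of all genes. Rpl30 (6.16 and 6.56) and Rpl12 (6.11 and 5.82) did not pass the level filter, and Rpl12 is 1 of those 3 genes. The cytosolic list was also brighter, with a median wild-type value of 11.49 against 9.55 for the mitochondrial ribosomal protein genes. Without replicates the difference between the 2 lists was not tested.

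**Figure D3:**
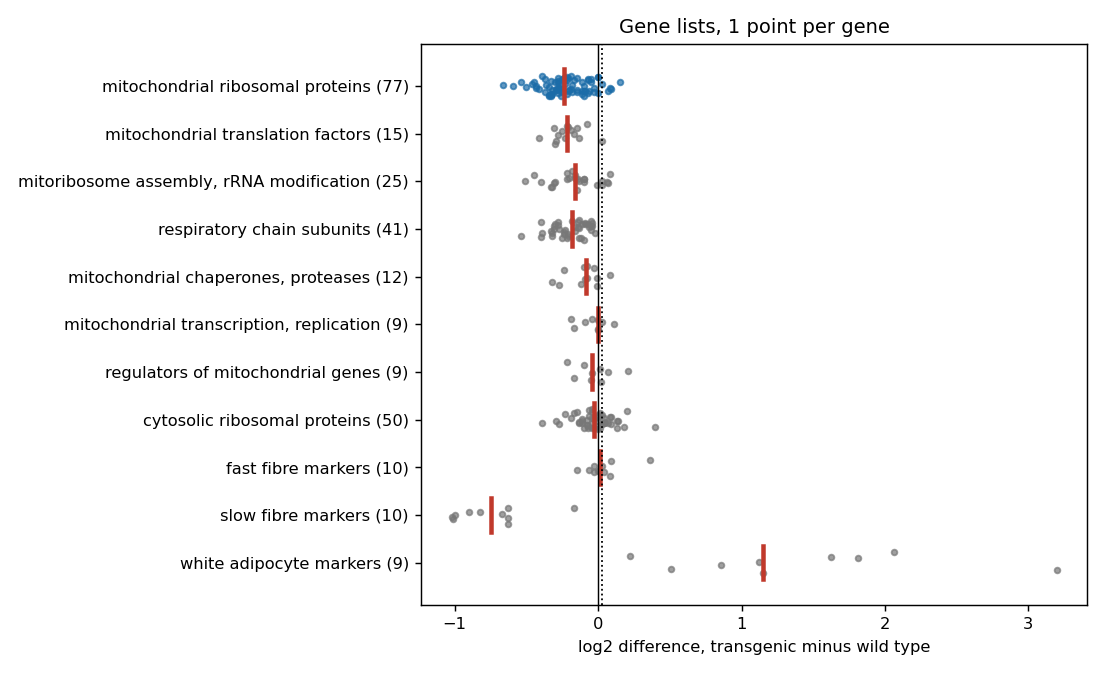
Log2 difference, transgenic minus wild type (horizontal), of every measured gene of 11 lists, with the number of genes in brackets, a red bar at each list's median and a dotted line at 0.03, the median of all genes past the level filter; vertical scatter within a list has no meaning. Mitochondrial ribosomal proteins (median -0.24) lie beside translation factors (-0.22) and respiratory chain subunits (-0.18), cytosolic ribosomal proteins (-0.03) lie near 0, and slow fibre and white adipocyte markers lie far to either side.

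Markers of fibre type and of other cells also differed between the arrays, and some by more than the members. Slow fibres are richer in mitochondria than glycolytic fast fibres. Of 10 slow fibre markers, 10 were lower and 9 passed 1.5-fold, with a median of -0.75. Their summed linear intensity was 55517 in wild type against 32262 in the transgenic array. Fast fibre markers had wild-type values from 13.11 to 14.36, as a check of the muscle label. The highest wild-type value over all genes was 14.55. The fast fibre median was 0.02 (between -0.01 and 0.07 under other scalings and summaries), with summed intensities of 155807 and 158180. These markers ran from Myh2 (13.40 and 13.25, -0.15) to Myh1 (13.11 and 13.47, 0.36), the only 1 past 1.2-fold. Of 9 measured white adipocyte markers, 9 were higher and 7 passed 1.5-fold, with a median of 1.15 and summed intensities of 3834 and 6917. Lep differed most (5.86 and 9.06) and Fabp4 least (11.20 and 11.42). All 8 fibroblast and matrix markers were higher (median 0.22, sums 16052 and 18474), as were all 4 Schwann cell markers measured (median 0.35, sums 2815 and 3705). Macrophage markers had a median of 0.16 (6 of 8 higher) and endothelial markers 0.01 (3 of 6 higher). The part of these cells and fibres in the result on the mitochondrial ribosome was not tested. The transgene's own gene, Stx4a, had 8.84 in wild type against 12.20 in the transgenic array.

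The promoter windows of the members were searched for motifs of known regulators of mitochondrial genes. RefSeq gave a window of 250 bases before and 50 after the start for 68 of the 77 genes. A match to the ETS motif (CCGGAAG), which the factor GABP binds, was in 23 of 68 windows (33.8%), against 11.9% of the windows of 17492 protein-coding genes. The YY1 motif (AAGATGGC) was in 12 (17.6%, against 3.21%) and the NRF1 motif (GCATGCGC) in 8 (11.8%, against 3.61%). At least 1 of the 3 was in 35 windows (51.5%, against 17.3%). The comparison shares cover protein-coding genes whatever their level on the arrays, whereas all members passed the level filter. No share was taken over genes past that filter alone. All motifs were searched on both strands, no motif contains another, and a match is not a bound site.

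Members were mostly lower with and without a motif. With at least 1 motif, 34 of 35 genes were lower and the median was -0.26. Without any, 27 of 33 were lower and the median was -0.18. The medians with and without the ETS motif were -0.24 and -0.22, those for YY1 -0.28 and -0.22, and those for NRF1 -0.23 and -0.24. Of the genes whose upstream sequences are printed above, the whole window of Mrps18b holds NRF1 and ETS matches, that of Mrps11 a YY1 match and that of Mrpl34 an ETS match. The ETS match of Mrps18b and the YY1 match of Mrps11 are not within the printed stretches. The windows of Mrpl14, Mrps5 and Mrps16 hold none of the 3.

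Several members start back to back with another gene, with only a short stretch of DNA between the starts. The partner need not work in mitochondria, and it was measured on the same arrays. For 16 members the partner was a gene outside the set, started within 1000 bases on the other strand and passed the level filter. Of these members, 14 were lower, with a median of -0.27. Of their 16 partners, 6 were lower, with a median of 0.06, beside 44.2% lower among all genes. Mrpl14 (-0.66) starts 131 bases from Tmem63b, a membrane channel gene, which had 10.58 and 10.50 (-0.08). Mrps18b (-0.50) starts 756 bases from Ppp1r10, which encodes a nuclear regulator of protein phosphatase 1 and was higher (8.39 and 9.11, 0.72). Mrpl18 (-0.28) starts 238 bases from Tcp1, a subunit of a cytosolic chaperonin (11.07 and 11.19, 0.12), and Mrpl32 (-0.33) starts 205 bases from the proteasome gene Psma2 (9.72 and 9.88, 0.16). The partners' share of lower genes was thus near that of all genes.

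Some partners also have mitochondrial products. Ptcd2, which acts on mitochondrial RNA, differed by -0.27 beside Mrps27 (-0.24). Sars2, the mitochondrial seryl-tRNA synthetase, differed by -0.12 beside Mrps12 (-0.10), and the complex I gene Ndufb5 by -0.09 beside Mrpl47 (0.07). Mrps11 and Mrpl46 are both members, 1 from each subunit, and start 42 bases apart across the sequence printed above. Mrps11 differed by -0.46 and Mrpl46 by -0.45. These pairs were chosen for naming after their values were seen, and genes of a pair share their arrays, so no test was made.

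**Figure D4:**
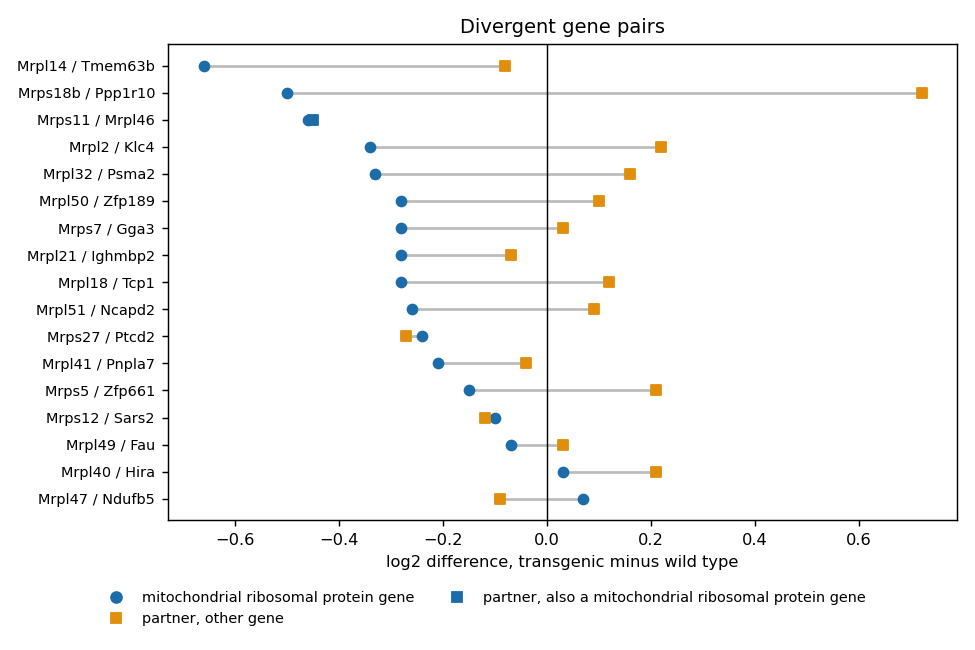
Log2 difference, transgenic minus wild type (horizontal), of 17 divergent gene pairs that passed the level filter, with the mitochondrial ribosomal protein gene as a blue circle and its partner as a square, orange for other genes and blue for Mrpl46. Of the 16 orange squares 6 lie below 0, and Mrps11 and Mrpl46 lie together near -0.46.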

How the data were processed

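Total RNA of hindlimb muscle was labelled with biotin and hybridised to 1 array per genotype. The authors deposited log2 intensities of 35556 probe sets to 2 decimals, made with RMA in Partek per the submitters' processing notes. The sources used here do not give versions, options or the build of the array design. The method usually corrects background, scales arrays to a common distribution and compresses large ratios. The number of arrays limits the precision, and p-values, SDs and standard errors are not given.

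Gene names came from the platform annotation. Of the probe sets, 21789 carried 1 symbol, 1621 several and 12146 none. All 77 members matched RefSeq (GRCm38.p6) by Entrez identifier under the same symbol. The probe set with the highest mean stood for a gene. The level filter was the median, over genes, of the higher of both values. Members and gene lists were chosen with earlier results of these data known, and the motifs, divergent pairs and the sequences shown were chosen after the members' values were seen. Named by rule are the members past 1.5-fold, the 6 highest and lowest of the large subunit and the 4 of the small subunit. So are the brightest and dimmest 3, genes with several probe sets, members of structural groups and Stx4a. Mrps5, Mrps18a to Mrps18c, Mrps30, Mrps36 and Mrpl12 are also named by rule. The ends of each list are named too, except that among marker lists only those of white adipocytes and fast fibres are.

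The alternatives tried were dropping the level filter, setting it at the 95th percentile of 1027 olfactory receptor genes, averaged probe sets, genes with 1 probe set, median centring, a loess trend removed (span 0.3, 3 iterations, statsmodels 0.14.6), repeated quantile normalization, means for medians, other folds, members past the filter, a background of like level and, added after seeing the data, the dimmest probe set. Counting was tested on simulated data with Python 3.11.15.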

Additional observations from a re-analysis of the deposited data

How the results depend on the processing

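Across 11 alternative settings the median of the mitochondrial ribosomal protein genes lay between -0.29 (repeated quantile normalization) and -0.22 (the mean), and the number of lower genes between 63 (of the 69 genes with 1 probe set) and 73. All 69 lower genes stayed below 0 in every setting that measured them. The 3 genes at 0 lay just below it after median centring, loess or quantile scaling. The number of higher genes, 5, was 3 with genes of 1 probe set and 3 with the dimmest probe set. The number lower by 1.5-fold, 2, was 32 at 1.2-fold and 0 at 2-fold. With means for medians, white adipocyte markers were at 1.39 and fibroblast markers at 0.32. Of 1239 comparisons with the reported values, 1230 kept within 0.1 (log2), or for counts within 1.5 times. Many of these could not move. All members passed the level filter, and list medians were taken without it. Settings that changed only the filter or the background thus left these values fixed. Taking means for medians likewise left the differences of single genes fixed. No paired analysis was possible because each group has 1 array, and for the same reason no replicate could be left out.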

Other observations

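Human mutations in some mitochondrial ribosomal protein genes cause combined oxidative phosphorylation deficiency, a group of severe childhood disorders. Of 13 such genes, 11 (84.6%) were lower in the transgenic array, and 5 (38.5%) were lower by 1.2-fold. These shares were 89.6% and 41.6% over all members, and 44.2% and 10.4% over all genes past the level filter. The 13 genes had a median of -0.11 and a mean of -0.17, against -0.24 and -0.22 over all members. Mrpl12 (-0.43), Mrps2 (-0.41) and Mrps22 (-0.37) were lowest. Mrpl3 had 10.51 in wild type against 10.21 in the transgenic array, and Mrpl44, whose loss affects the heart, had 7.89 and 7.72. Mrps34 was nearly equal (9.16 and 9.13), and the 2 higher genes, Mrps16 and Mrps25, are the members with a higher value in the small subunit. Mrpl3, Mrpl44 and Mrps34 were named after their values were seen, and the difference from the other members was not tested.

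The members are spread over 17 chromosomes, with at most 11 on any of them.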
